A study of Mus musculus with 27 samples.

Results

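The olfactory mucosa behind the open nostril of mice with 1 closed nostril was compared with the mucosa of sham-treated mice, across all 29922 probes of a microarray. The members were chosen by the sample titles: 9 arrays titled open and 9 titled normal, 18 of the 27 arrays of the series. In each group the title number 1, 2 or 3 was read as the biological replicate and the letter as 1 of 3 repeat arrays of it, which were averaged, so that each group has 3 values per probe. All mice were females of the FVB strain, 25 days old. The open group is the mucosa on the ventilated side of mice in which the other nostril had been closed by cautery. The normal group is mucosa of other mice, which received a sham cautery on the muzzle and kept both nostrils open. The 9 arrays of the occluded side come from the same individuals as the open side and serve here for the estimate of the spread and as a reference level. How long the nostril had been closed before tissue was taken, and whether tissue of several mice was pooled, is not stated in the labels.

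The olfactory mucosa lines the back of the nasal cavity. It holds the olfactory sensory neurons, each of which carries 1 kind of odorant receptor, together with supporting sustentacular cells, basal stem cells and the mucus-producing Bowman's glands. An odorant that binds its receptor activates the G protein subunit Gnal and the adenylyl cyclase Adcy3, and the resulting cyclic AMP opens the channel formed by Cnga2 and its partners. Closing a nostril removes most odor and airflow from that side, and all of the inhaled air passes through the other side. The open side therefore has an intact nostril but a higher airflow than a normal nose, and its use as a control rests on how closely it resembles the mucosa of an animal with both nostrils open.

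The values were intensities of single-dye arrays. The median probe intensity was 123 to 242 on the open arrays and 131 to 274 on the normal arrays. Between 8.57% and 19.8% of the probes of an array lay below its noise limit, defined as 3 times the root mean square of the negative values, and 36 to 75 probes per array were saturated. Values below are log2 of the quantile-normalised intensity, on which a difference of 1 is a 2-fold difference, and differences are open minus normal with their standard error (SE), 3 replicates a group. The tissue label was checked against marker genes. Omp, the olfactory marker protein of mature neurons, was saturated on 8 of 9 open and 9 of 9 normal arrays, and its dimmer second probe read 14.07 in open and 14.11 in normal mucosa. Genes known from other tissues also gave signal in both groups. The bone matrix gene Ibsp read 13.4 in both, and the myelin gene Mbp 9.0 in open and 8.8 in normal mucosa. The vomeronasal channel gene Trpc2 read 7.77 in open and 8.12 in normal mucosa. Both Trpc2 values lay within the range of the 5984 probes of middle brightness, 6.72 to 8.29. Whether vomeronasal tissue was present cannot be told from this level. In bulk tissue fewer cells of a type and less RNA per cell cannot be told apart.

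No gene passed the test between the open side and normal mucosa. Of 29922 probes, 0 passed an adjusted p of 0.05 (0% called; limma with Benjamini-Hochberg adjustment), and the smallest adjusted p was 1.0. An unadjusted p under 0.05 was reached by 477 probes, or 1.59%, of which 236 were higher (0.789%) and 241 lower (0.805%) on the open side. This is below the share of 0.05 that p-values give where nothing differs, so the test was probably strict here. Passing 0 probes therefore does not show that open and normal mucosa are equal. The 3 open values lay wholly above the 3 normal values for 616 probes (2.06%) and wholly below them for 661 (2.21%). In the same fit 66 probes (0.221%) were called between the occluded and the open side and 2 (0.00668%) between the occluded side and normal mucosa. These comparisons share samples with the present one. If the letters and not the numbers of the titles mark the biological replicates, 121 probes pass between open and normal, 84 of them higher. Within a group, arrays of the same number correlated at a median of 0.962 and arrays of different numbers at 0.949.

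**Figure D1:**
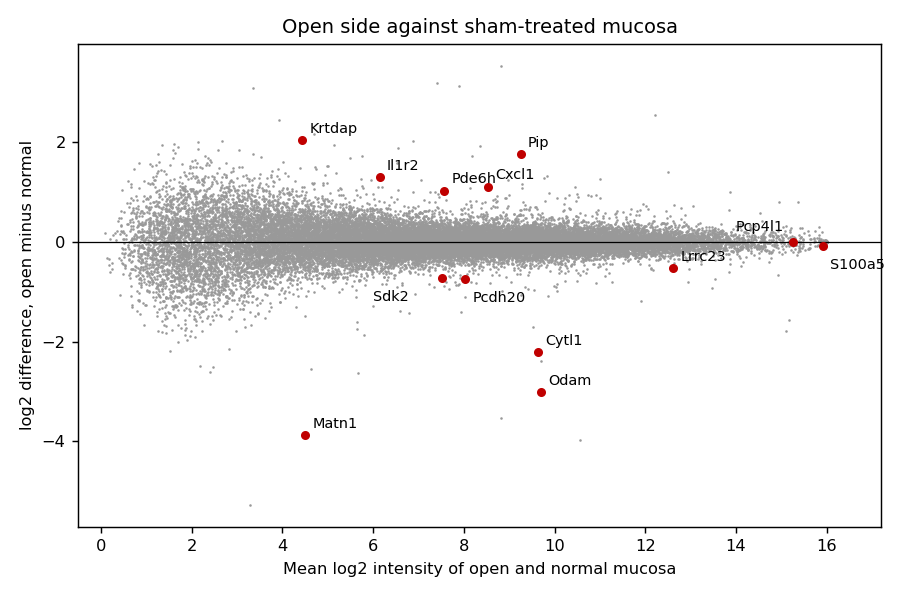
Difference between open and normal mucosa (vertical axis, log2) of each of 29922 probes against the mean log2 intensity of both groups (horizontal axis), each point 1 probe. Bright probes lie close to 0 on the vertical axis and the scatter widens toward dim probes; red points mark some of the genes described in the text.

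The size of the differences that these data leave room for was small for most readable genes. On 21683 probes the signal was above the noise limit on all 18 arrays and not saturated. The middle 95% of their differences ran from -0.39 to 0.40, and their median 95% confidence interval reached 0.57 to either side of the estimate. The interval lay wholly between -1 and 1 for 17740 of them (81.8%), so that a 2-fold difference in either direction is outside the interval for these genes. Only 30 of the 21683 (0.138%) had an estimate beyond 1 in either direction, 16 higher and 14 lower. Precision was lower for dim probes. In the dimmest 5985 of all probes 8.42% had a difference beyond 1 and 5.61% an unadjusted p under 0.05, against 0.134% and 0.351% in the brightest 5985. Of the 100 probes with the smallest p, 70 did not reach the noise limit on 10 or more of the 18 arrays. The spread between biological replicates had a median SD of 0.29 in open and 0.24 in normal mucosa, above the median of 0.19 between repeat arrays.

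As a list, the genes known to follow odor-driven activity in olfactory neurons had a median difference close to 0 on the open side. Single members ran from -0.21 to 0.68. The groups overlapped for every listed member. Since 4.27% of all probes did not overlap, a list of 19 genes would hold few or no such members in any case. Among the 19 listed genes of this kind, 12 lay above and 7 below normal mucosa with a median difference of 0.02, against -0.004 over all probes. S100a5, a calcium-binding protein of mature neurons, read 15.79, 15.91 and 15.93 in the 3 open replicates and 15.99, 15.92 and 15.96 in the normal ones. Its occluded values of 13.40, 13.76 and 14.27 were all far below both. The difference of S100a5 between open and normal was -0.08 ± 0.23 (95% interval -0.61 to 0.45), and since 5 of 9 open and 7 of 9 normal arrays were saturated, a rise above the normal level could not have been seen. The gene Pcp4l1 is bright but was less affected by this ceiling. It read 15.53, 15.01 and 15.23 on the open side, 15.26, 15.38 and 15.12 in normal mucosa and 14.08, 13.72 and 14.01 on the occluded side. The open and normal values interleave, with a difference of 0.00 ± 0.19 (-0.44 to 0.44), while the occluded values are lower than all of them.

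The cell adhesion genes that sort olfactory axons by activity also overlapped between open and normal mucosa. Kirrel2, whose expression is raised by activity, read 9.07, 10.05 and 9.90 on the open side and 9.60, 10.33 and 9.36 in normal mucosa, against 7.24, 7.80 and 8.29 on the occluded side. The open and normal groups overlap, and the difference was -0.10 ± 0.36. Kirrel3, which is expressed in the opposite way, read 11.83, 11.57 and 11.91 on the open side and 11.93, 11.67 and 11.93 in normal mucosa, with occluded values of 12.50, 12.78 and 12.90. Its difference between open and normal was -0.07 ± 0.20. Pcdh10, a protocadherin, differed by -0.03 ± 0.17 (-0.42 to 0.36) between open and normal, and its 3 occluded values of 8.28, 8.19 and 8.18 were at least 0.97 below all 6 others. Calb2, the calcium buffer calretinin, and Efna5, an axon guidance ligand, differed by 0.02 ± 0.24 and 0.07 ± 0.25, and their dimmer second probes by 0.14 ± 0.21 and -0.16 ± 0.23. The exchangers Slc24a1 and Slc8a1, which move calcium out of the cell, differed by -0.01 ± 0.28 and 0.29 ± 0.27. Slc8a1 read 12.58, 12.24 and 12.27 on the open side and 11.95, 12.66 and 11.63 in normal mucosa, so that the range of the normal values contains all open ones. Its 3 other probes differed by -0.22, 0.32 and -0.10.

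**Figure D2:**
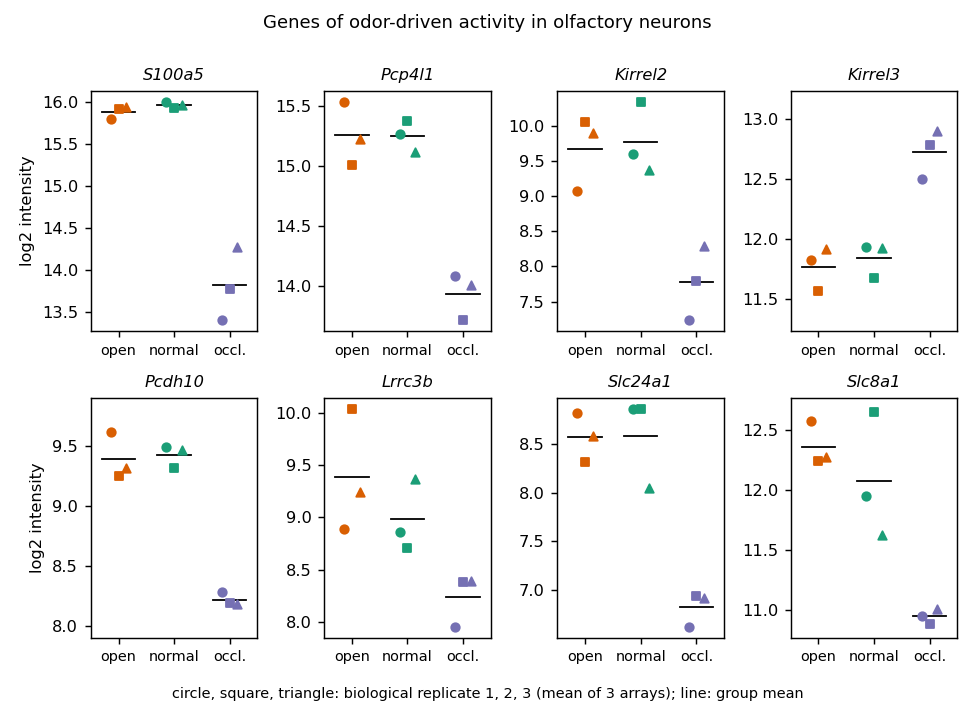
Quantile-normalised log2 intensity (vertical axis) of 8 genes that depend on odor-driven activity, in open, normal and occluded (occl.) mucosa, with 1 point per biological replicate and a line at the group mean. The open and normal points overlap for all 8 genes, while the 3 occluded points lie apart from both groups. The 8 genes were picked with earlier results of these data known. For Calb2 and H2bc21, listed but not shown, an occluded value lies within the range of the open ones.

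The genes of this kind that stood highest on the open side were the 3 with the smallest p in the list, and none passed the test. H2bc21, a histone H2B variant of olfactory neurons that is higher where activity is low, read 10.08, 10.83 and 11.08 on the open side and 9.94, 10.74 and 9.28 in normal mucosa. The groups overlap, and the difference was 0.68 ± 0.40 (-0.23 to 1.59). The occluded values of 10.52, 11.38 and 11.21 reach somewhat higher than the open ones. Lrrc3b, a leucine-rich repeat membrane protein, differed by 0.41 ± 0.31, with an open replicate 2 of 10.04 above the other 5 values, which ran from 8.71 to 9.37. Sema3a, a secreted axon repellent, differed by 0.48 ± 0.37, with 1 low value in normal mucosa of 5.75.

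Of the genes switched on within minutes of neuronal activity or tissue handling none passed the test. Of the 21 immediate early genes, 9 lay above and 12 below normal mucosa, with a median difference of -0.03. Fos, a transcription factor subunit, read 9.30, 9.40 and 10.47 on the open side and 9.37, 9.40 and 9.65 in normal mucosa, a difference of 0.25 ± 0.40. Its dimmer second probe differed by -0.32 ± 0.25. Egr1, another early transcription factor, (0.20 ± 0.42) showed the same single high value in open replicate 3, of 10.81. Nr4a1, an orphan nuclear receptor, differed by -0.09 ± 0.54, with replicates from 5.56 to 7.18. Npas4, a transcription factor specific to neurons, had the smallest p of the list, with a difference of -0.55 ± 0.30 and overlapping groups.

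No gene of the odor transduction cascade passed the test. Of 19 measured genes, 5 lay above and 14 below normal mucosa, with a median difference of -0.13, and the groups of 0 of 19 did not overlap, against 4.27% of all probes. Without open replicate 1 the median was 0.02. Gnal differed by 0.29 ± 0.24 (its dimmer second probe by -0.22 ± 0.44) and Adcy3 by -0.17 ± 0.16, the latter with an interval of -0.54 to 0.20. Cnga2 differed by -0.18 ± 0.22. Ric8b, the exchange factor that keeps Gnal stable, had the largest difference of the list, -0.49 ± 0.30, with open values of 13.99, 13.30 and 14.32 and normal values of 14.46, 14.30 and 14.31. The open replicates spread over 1.02 and the normal ones over 0.16, and the groups overlap. Ric8b was at -0.11 with the median of the repeat arrays and at -0.14 without open replicate 2. Of the 19 measured markers of mature neurons, 11 lay above and 8 below (median 0.06), and of the 19 of immature neurons, 10 above and 9 below (median 0.05). Dcx, a microtubule protein of young neurons, differed by -0.24 ± 0.18 on its brightest probe and between -0.05 and 0.04 on 3 others, and Emx2, a transcription factor needed for receptor expression, by 0.40 ± 0.26.

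Odorant receptors were measured by 689 genes, of which 247 lay above and 442 below normal mucosa, with a median difference of -0.06. By replicate, the median shift from the normal mean was 0.03, 0.08 and -0.26 in the open replicates and 0.16, -0.16 and -0.01 in the normal ones. Open replicate 3 alone lay lower than all normal replicates, and without it the median difference was 0.03. Groups did not overlap for 24 receptors, 8 higher and 16 lower (3.48%, against 4.27% of all probes). The 82 vomeronasal receptors had a median of -0.003, with 40 above and 42 below.

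Of the 24 genes with the smallest p among those whose groups did not overlap, 12 in each direction, Pde6h and Il1r2 (higher) and Sdk2 and Pcdh20 (lower) were above the noise limit on all 18 arrays. Krtdap had the smallest p of the higher genes, and none of the 24 passed the test. Krtdap, a secreted protein of differentiating stratified epithelium, read 5.47, 5.74 and 5.15 on the open side and 2.99, 3.18 and 4.07 in normal mucosa. The occluded side was between them, at 4.84, 4.59 and 4.37. The difference of Krtdap was 2.04 ± 0.31, and its normal value is close to the noise, being below the limit on 3 of 9 arrays. With 50 added to every intensity before log2, which reduces the weight of dim values, it was 0.56. Krtdap belongs to a list of stratified and cornified epithelium. Of its 22 measured genes, Krtdap included, 13 lay above and 9 below normal mucosa with a median of 0.04, and the summed level of the list was 9644 to 10835 on the open side and 10375 to 12605 in normal mucosa. Tgm1, a crosslinking enzyme of the cornified envelope, was at 0.49 ± 0.28 and the keratin Krt4 at -0.57 ± 0.37.

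Pde6h, the inhibitory gamma subunit of the cone photoreceptor phosphodiesterase, read 8.08, 8.23 and 7.94 on the open side and 7.03, 7.2 and 6.95 in normal mucosa, with occluded values of 7.23, 7.0 and 6.99. All 3 open values were at least 0.74 above every normal value, and the difference was 1.02 ± 0.18 (0.62 to 1.43). Pde6h lay above the noise limit on all arrays. It was among the 66 probes called between the occluded and the open side (limma adjusted p = 0.035), a comparison that uses the same 3 open values. Between the occluded side and normal mucosa it differed by 0.01 ± 0.18.

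Il1r2, the decoy receptor that binds interleukin 1 without signalling, read 6.80, 6.22 and 7.35 on the open side and 5.23, 5.69 and 5.57 in normal mucosa. Its groups do not overlap, and the difference was 1.29 ± 0.36 (0.48 to 2.10). Sdk2, an adhesion molecule of the immunoglobulin family, read 7.31, 7.0 and 7.15 on the open side and 8.01, 7.99 and 7.64 in normal mucosa, a difference of -0.73 ± 0.19. A second Sdk2 probe of lower signal differed by 0.07 ± 0.17. Pcdh20, a protocadherin, read 7.73, 7.56 and 7.70 against 8.46, 8.51 and 8.25, a difference of -0.75 ± 0.22, and its second, dimmer probe differed by 0.31 ± 0.26. The second probes of Sdk2 and Pcdh20 thus did not show the difference of the first. With the median of the repeat arrays in place of their mean the brighter probes differed by -0.32 and -0.30. Zfp786, a zinc finger protein of low signal, differed by -0.95 ± 0.28, and by -0.40 with 50 added to every intensity. Vmn1r80, a vomeronasal receptor below noise on 5 of 18 arrays, read 3.09, 3.11 and 3.14 against 4.17, 4.21 and 4.61, a difference that was -0.17 with 50 added.

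**Figure D3:**
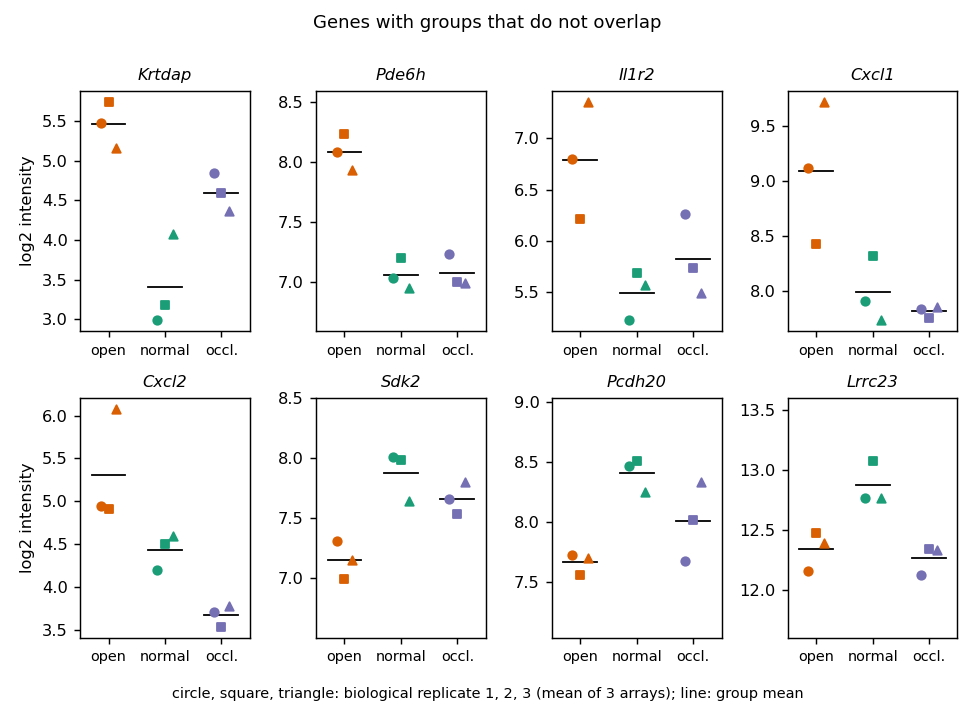
Quantile-normalised log2 intensity (vertical axis) of 8 genes whose 3 open and 3 normal values do not overlap, with the occluded (occl.) side beside them, 1 point per biological replicate and a line at the group mean. Krtdap, Pde6h, Il1r2, Cxcl1 and Cxcl2 are higher in all 3 open replicates and Sdk2, Pcdh20 and Lrrc23 lower, and none passed the adjusted threshold.

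Many other genes with small p were too dim to read. Of the 12 genes with the smallest p in the higher direction, 8 were below the noise limit on 12 to 17 of the 18 arrays (Zfp354c, Fscn3, Msmb, Rnase2b, Klk1b5, Mrpl45, Slc17a8 and Olfr228). Ctns, the lysosomal cystine transporter, was below it on 8. In the lower direction it was also 8 of 12, on 13 to 17 arrays (Hells, Slc26a10, Zfp81, Catsperb, Tssk2, Svs3a, Procr and Cnmd). No difference is given for these genes. Where a gene had 2 readable probes, their differences were only weakly correlated. Across 2369 pairs of probes of 1 gene the differences correlated at 0.195 (Pearson) and 0.159 (Spearman), as a description across genes, which are not independent and share the same 6 samples. Among 32 pairs whose brighter probe differed by over 0.5 in size, with a median of 0.57, the second probe had the same sign in 23 and a median of 0.16 in that direction.

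More genes of the immune and inflammation list lay above normal mucosa than below it, with no member past the test. Of 37 measured genes, 31 lay above and 6 below normal mucosa, where 49.1% of all probes lay above, and the median difference was 0.17. Cxcl1, a chemokine that attracts neutrophils, read 9.12, 8.43 and 9.72 on the open side and 7.91, 8.32 and 7.73 in normal mucosa, with occluded values of 7.83, 7.75 and 7.86. All open values exceed all normal ones, by as little as 0.11 between open replicate 2 and normal replicate 2, and the difference was 1.10 ± 0.33. The related Cxcl2 read 4.95, 4.90 and 6.08 against 4.20, 4.50 and 4.59, a difference of 0.88 ± 0.32 at a level close to the noise. Cd14, the co-receptor for bacterial lipopolysaccharide, read 10.66, 10.19 and 10.72 against 9.75, 10.05 and 9.86, a difference of 0.64 ± 0.35. These 3 were the only members whose open values lay wholly above the normal ones, and Ms4a1, which encodes the B cell antigen CD20, was the only 1 wholly below (-0.67 ± 0.24, and -0.33 with the median of the repeat arrays), together 10.8% of the list against 4.27% of all probes.

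Other members of this list overlapped between the groups. Lcn2, an iron-scavenging antimicrobial protein, differed by 0.81 ± 0.46, Cxcl5 by 0.64 ± 0.32, the complement component C3 by 0.56 ± 0.30 and Il1b, the cytokine bound by Il1r2, by 0.43 ± 0.22. The neutrophil proteins S100a8 and S100a9 were at 0.72 ± 0.62 and 1.94 ± 1.24. Their normal replicates ran from 11.52 to 14.05 and from 1.78 to 6.94, a range that contains all open values of S100a8. Leaving out 1 replicate at a time, S100a8 ran from 0.14 (without normal replicate 1) to 1.40 (without normal replicate 2) and S100a9 from 0.74 to 3.32 for the same replicates. S100a9 was below noise on 4 of 9 normal arrays and was at 0.60 with 50 added to every intensity. Tnf was at -0.10 ± 0.27 and the macrophage gene Cd68 at -0.24 ± 0.22. By replicate, the median shift of the list was 0.34, 0.11 and 0.25 on the open side and -0.07, 0.07 and -0.07 in normal mucosa. The median difference was 0.05 without open replicate 1 and 0.34 without open replicate 2. The summed level of the list, which is dominated by its brightest members, overlapped, at 35448 to 45147 on the open side and 23993 to 41973 in normal mucosa. Interferon response genes had a median of 0.05, with 11 of 20 above.

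Most genes of motile cilia and airway epithelium had values below normal mucosa, and none passed the test. Of 18 measured, 5 lay above and 13 below normal mucosa (median -0.06, and 0.01 without normalisation between arrays), and the groups of 4 did not overlap, all 4 lower (22.2% of the list, against 2.21% of all probes). One of the 4, Cyp2f2, is counted in the 22.2% but was saturated on all 18 arrays, so that its order carries no information. Lrrc23, a radial spoke protein of motile cilia, read 12.16, 12.48 and 12.39 on the open side and 12.77, 13.08 and 12.77 in normal mucosa, a difference of -0.53 ± 0.18 (-0.94 to -0.13). The occluded values of 12.13, 12.34 and 12.33 resemble the open ones. Dynlrb2, a dynein light chain, read 13.86, 13.11 and 13.69 against 14.50, 13.92 and 14.04, a difference of -0.60 ± 0.25. The groups of Dynlrb2 were only 0.06 apart, and with the median of the repeat arrays Dynlrb2 was at -0.29. Dnaic1, a dynein intermediate chain, differed by -0.22 ± 0.16. Its groups were barely apart, by 0.013. The axonemal genes Rsph1 (-0.08 ± 0.17) and Ccdc39 (-0.10 ± 0.18) and the master regulator Foxj1 (0.07 ± 0.24) lay near 0.

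No gene of the basal cells, which rebuild the epithelium after damage, passed the test. Of 12 horizontal basal cell genes 10 lay above and 2 below (median 0.13), and the groups of 0 of 12 did not overlap, against 4.27% of all probes. By replicate the median shift of the list was 0.20, 0.0034 and 0.26 on the open side and -0.02, 0.07 and 0.0059 in normal mucosa, so that the shifts overlap. The keratins Krt14 and Krt5 differed by 0.13 ± 0.19 and 0.13 ± 0.27, and Trp63, the transcription factor that maintains these cells, by 0.21 ± 0.19. Krt5 was at -0.093 without normal replicate 2. Among 23 progenitor and cell cycle genes, 18 lay above and 5 below (median 0.12). The members with the smallest p were the dim Bub1 and Ezh2, the first below noise on 11 of 18 arrays, and Ccna2 at 0.26 ± 0.19, a cyclin of S phase at a readable level of 9.99, 9.96 and 10.16 against 9.89, 9.96 and 9.47. Normal replicate 3 alone was low for Ccna2.

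Lists for the stresses that a change in airflow could bring had small positive medians. A larger share of their members lay above normal mucosa than the 49.1% of all probes. The hypoxia list had 14 of 19 above and a median of 0.08, heat shock and cell stress 13 of 18 and 0.08, and antioxidant defence 15 of 22 and 0.09. The median shifts by replicate overlapped between open and normal mucosa in each of these lists. For antioxidant defence they were -0.18, 0.28 and 0.23 on the open side and -0.13, 0.09 and 0.07 in normal mucosa. Medians of this size were not particular to these lists, as sustentacular cells had 0.09 and endothelium 0.13. Hspa1b, an inducible heat shock protein, differed by 0.80 ± 0.46, with open values of 6.91, 8.29 and 8.07 and normal values of 6.15, 7.44 and 7.27. Pgk1, a glycolytic enzyme, differed by 0.42 ± 0.26 and Car9, a carbonic anhydrase induced by low oxygen, by 0.30 ± 0.24. Sod3, the extracellular superoxide dismutase, read 8.34, 7.96 and 8.18 against 8.61, 8.76 and 8.36, a difference of -0.41 ± 0.25. Its groups do not overlap, but the lowest normal value is barely above the highest open one. Enzymes that clear inhaled chemicals and odorants had 15 above and 13 below (median 0.01). Among them Aldh1a1, a retinaldehyde dehydrogenase, differed by 0.13 ± 0.17 and Cyp2s1, a cytochrome P450, by -0.26 ± 0.17. The apoptosis list had 10 above and 9 below with a median of 0.003.

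Ion and water transport genes, which set the fluid layer over the epithelium, had 17 of 22 above and a median of 0.11. By replicate the median shift was 0.08, 0.26 and 0.33 on the open side and -0.05, 0.04 and -0.01 in normal mucosa, so that the 3 open values exceed the normal ones, while the summed level overlapped at 51872 to 99652 against 56308 to 79316. The groups of 0 of 22 members did not overlap, against 4.27% of all probes. Car4 and Car12, membrane-bound carbonic anhydrases, differed by 0.51 ± 0.25 and 0.38 ± 0.28, and Slc26a9, a chloride channel of airway epithelium, by 0.42 ± 0.24.

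**Figure D4:**
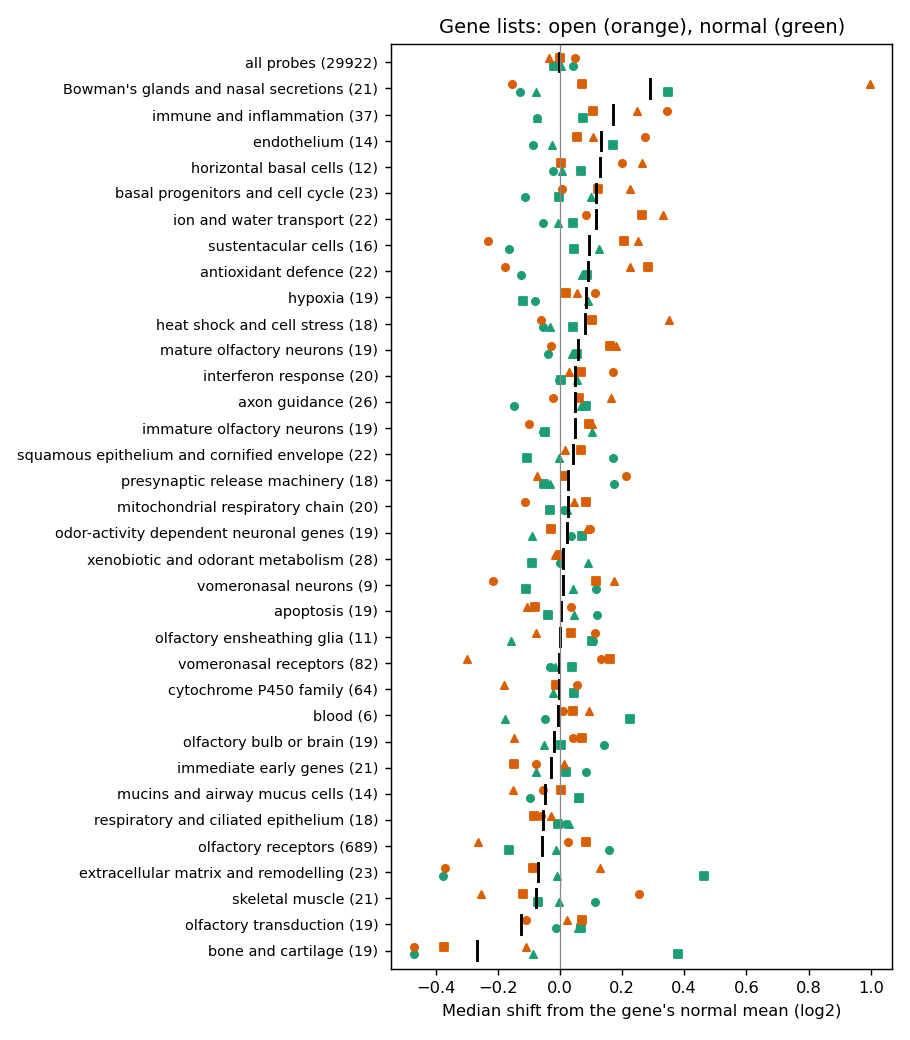
For each gene list (measured members in brackets) the median over members of the log2 intensity minus the gene's mean in normal mucosa (horizontal axis), for each open replicate in orange and each normal replicate in green, with circles, squares and triangles for replicates 1, 2 and 3; the black bar is the median difference of the list. The orange and green points overlap in 31 of 34 lists; the open points lie above the normal ones in immune genes and in ion and water transport and below them in ciliated epithelium, and open replicate 3 stands far out in the list of Bowman's glands at 1.0.

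Secretions of Bowman's glands and other nasal glands varied more between replicates than between groups. Of 21 measured genes 16 lay above and 5 below normal mucosa, with a median of 0.29, which was 0.54 without normal replicate 2 and -0.0049 without open replicate 3. By replicate the median shift was -0.15, 0.07 and 1.0 on the open side and -0.13, 0.35 and -0.08 in normal mucosa. Pigr, the receptor that carries antibodies into mucus, read 11.00, 11.04 and 11.61 against 10.57, 10.64 and 10.63, a difference of 0.60 ± 0.29 with groups that do not overlap. Bpifb6 (0.28 ± 0.17) and the lysozyme Lyz1 (0.50 ± 0.21) did not overlap either. These 3 of 21 (14.3%) were all higher, against 2.06% of all probes. The groups of Bpifb6 were only 0.09 apart. Its mean deposited intensities, before normalisation, overlapped, at 40008, 49940 and 58086 on the open side and 40959, 38492 and 39633 in normal mucosa. Chil4, a chitinase-like secreted protein, read 15.08, 13.53 and 15.85 on the open side and 13.92, 15.01 and 13.79 in normal mucosa, and 11.87, 11.27 and 11.45 on the occluded side. The open and normal values of Chil4 interleave, with a difference of 0.58 ± 0.58, and all 6 lie above the occluded ones. Muc5b, a gel-forming mucin, differed by 0.29 ± 0.45. Lcn4, an odorant-carrying lipocalin, ran from 7.55 to 15.98 within normal mucosa and from 11.56 to 14.79 within the open group.

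Some of the larger differences of readable genes rested on single replicates. A search made after the data were seen took probes above the noise limit on all 18 arrays, saturated ones included. On each of them 1 of the 6 replicates lay more than 2 from the nearest other replicate on 1 side. Open replicate 3 lay above the others on 10 such probes and below on 4, normal replicate 2 above on 8, normal replicate 1 below on 4, normal replicate 3 above on 1 and below on 2, open replicate 2 above on 2 and open replicate 1 on 0. The search did not require the repeat arrays of a replicate to agree. On the 2 probes of open replicate 2 they differed widely, with mean intensities of 12387 and 23482 at mean log2 values of 10.93 and 10.58. The same held for the probe on which normal replicate 3 was high (8021 at 9.76). Of the 10 probes above in open replicate 3, those of Csn3, Pip, Car6 and 2310057J18Rik have a gene name here. Csn3, a milk casein, read 9.87, 9.19 and 12.44 on the open side and 8.91, 9.47 and 9.15 in normal mucosa. Pip, a secretory protein of exocrine glands, read 8.83, 8.63 and 12.91 against 7.70, 10.18 and 7.24, and Car6, a secreted carbonic anhydrase, 8.82, 8.88 and 11.86 against 8.69, 9.0 and 8.39. The transcript 2310057J18Rik read 8.12, 7.37 and 14.33 against 7.79, 11.97 and 8.08. Csn3 and Car6 were also high in occluded replicate 2 (11.51 and 11.13). Odam, an ameloblast-associated secreted protein, was low in open replicate 3, with 9.80, 9.27 and 5.51 against 11.46, 12.54 and 9.63. Its difference of -3.01 ± 1.48 was the largest in size among readable probes. Without open replicate 3 the differences of Csn3, Pip and Car6 were 0.19, -0.46 and -0.08 and that of 2310057J18Rik -2.06. That of Odam was still -2.11. Cabs1, a calcium-binding protein, was low in open replicate 3 and high in normal replicate 2, with 9.40, 10.01 and 6.11 against 10.66, 12.88 and 9.15.

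Of the 8 probes on which normal replicate 2 stood above the others, those of Cytl1, Col2a1, Acan, Hapln1 and Col10a1 are of genes known from cartilage, and the other two are of Cabs1 and Lifr. Cytl1, a cytokine-like protein of chondrocytes, read 8.36, 14.92 and 8.95 in normal mucosa and 8.33, 8.42 and 8.85 on the open side. Its deposited intensities in normal replicate 2 were 31279, 31672 and 33837 on the 3 repeat arrays, and between 168 and 607 on the 15 other open and normal arrays. Col2a1, the main collagen of cartilage, read 8.53, 13.33 and 9.23 in normal mucosa, and its second probe was high in the same replicate (6.48, 11.43 and 8.04). Acan, the proteoglycan aggrecan, read 7.56, 10.67 and 7.53, Hapln1, which links it to hyaluronan, 6.43, 9.19 and 6.21, and Col10a1, the collagen of hypertrophic cartilage, 5.01, 9.37 and 5.88. Lifr, a cytokine receptor, read 6.29, 9.47 and 6.59 in normal mucosa on this probe, while its brighter probe differed by 0.03 between open and normal. On the dimmer Lifr probe the mean intensity of normal replicate 2 was 12844 at the log2 mean of 9.47, so its repeat arrays differed widely. Matn1, a cartilage matrix protein, read 4.13, 11.79 and 3.38 in normal mucosa and lay below noise on 8 of 9 open arrays. Over the whole bone and cartilage list, 3 of 19 genes lay above and 16 below normal mucosa, with a median of -0.27 that was -0.07 without normal replicate 2, and a summed level of 59044 to 89247 on the open side and 58350 to 110948 in normal mucosa. No listed gene was below noise on all 18 arrays. The part of such tissue in other differences was not tested.

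**Figure D5:**
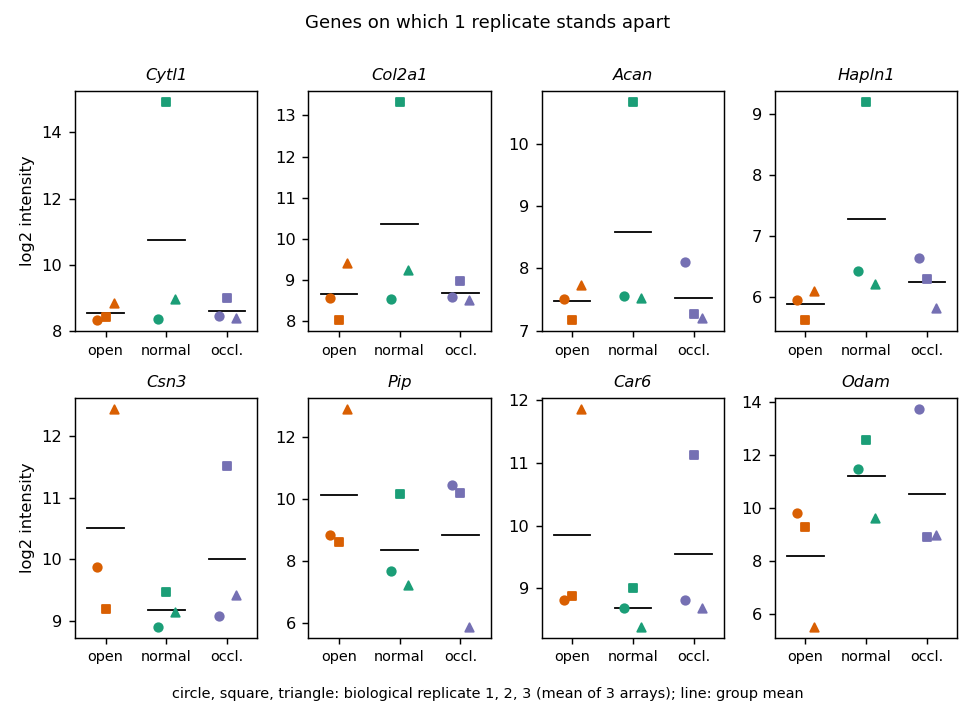
Quantile-normalised log2 intensity (vertical axis) of 8 genes on which 1 biological replicate stands apart, in open, normal and occluded (occl.) mucosa, with 1 point per replicate and a line at the group mean. The square of normal replicate 2 is high for Cytl1, Col2a1, Acan and Hapln1, and the triangle of open replicate 3 is high for Csn3, Pip and Car6 and low for Odam.

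Lists of other tissues that a dissection could include overlapped between the groups. Skeletal muscle genes had 8 of 21 above and a median of -0.08, genes of olfactory bulb or brain 9 of 19 and -0.02, ensheathing glia 5 of 11 and -0.0011, and vomeronasal neurons 5 of 9 and 0.01. The vomeronasal gene Trpc2 read 7.81, 7.61 and 7.89 on the open side and 8.27, 7.84 and 8.27 in normal mucosa, a difference of -0.35 ± 0.22. Blood genes had 3 of 6 above with a median of -0.0048, although Car1, a red cell carbonic anhydrase, was at 0.78 ± 0.55. Endothelial genes had 12 of 14 above with a median of 0.13.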

How the data were processed

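RNA of olfactory mucosa was amplified with amino-allyl UTP and coupled to Cy5, 1 sample an array, per the labels' protocols. The authors deposited an intensity per probe on a linear scale, with some values below 0. Scanner, background method and any normalization are not stated in the labels. Intensities of 0 or less were replaced by 0.912, the smallest positive one, before log2, the arrays were quantile normalised because their medians differed by more than 0.2, and the 3 repeat arrays of a replicate were averaged. All 9 replicates entered 1 limma fit (version 3.58.1, R 4.3.3, statmod 1.5.0). Individuals formed a random block with a consensus correlation of 0.389, open and occluded replicates of 1 number being read as 1 mouse. Tests were two-sided, with Benjamini-Hochberg adjustment over all 29922 probes, dim ones included, at 0.05. Saturated means 99.5% or more of the array's top value. The precision is limited by the 3 biological replicates a group and not by the number of arrays. The p-values set a difference against the spread between these replicates.

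Probe names came from an annotation of the array that gives 21020 probes 1 symbol and leaves 8902 unnamed here; 2728 symbols were updated through a RefSeq gene table of GRCm38.p6. The brightest of a gene's probes stands for it. The members, the gene lists and the tests were chosen with earlier results of these data known, and the lists are described by counts and medians without a test. Named by rule were the 12 genes with the smallest p in each direction whose groups did not overlap, the 3 with the smallest p of each list and a set of known genes, leaving out unnamed and predicted transcripts. Other genes were named after their values were seen: Cytl1, Col2a1, Acan, Hapln1, Col10a1, Csn3, Pip, Car6, Calb2, Efna5, Egr1, Cd14, Il1b, Lcn2, C3, Cxcl5, S100a8, S100a9, Tnf, Cd68, Krt4, Krt5, Krt14, Bpifb6, Lcn4, Foxj1, Dnaic1, Rsph1, Ccdc39, Cyp2f2, Ibsp, Mbp, Cabs1, Lifr, 2310057J18Rik, Lrba and Fgd1. Cyp2a5 and Bpifb9a were not measured under these names. Alternatives covered the block, the repeat arrays, the reading of the titles, the normalisation, dim probes, the prior and each replicate left out.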

Additional observations from a re-analysis of the deposited data

How the results depend on the processing

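Of 20 alternatives, 19 gave 0 probes past the adjusted threshold, with 92 to 992 probes at an unadjusted p under 0.05, against 477; leaving out 1 replicate at a time gave 0 to 0. The exception, the title letter read as the biological replicate, called 121. The title number as a replicate block called 0, with 992 probes at an unadjusted p under 0.05. The numbers were not taken to pair the samples, although part of the spread followed them. Over the readable probes the title number held 59.9% of the sum of squares, the group 9.60% and the rest 30.6%. The number has more levels than the group, so it would hold a larger share even where neither had an effect. Same-numbered open and normal replicates correlated at 0.977 to 0.984, replicates within a group at a median of 0.974. Deviations of same-numbered open and normal replicates from their group means correlated at 0.394, 0.104 and 0.071. Normal replicate 2 correlated best with open replicate 3 (0.259). Spread shared by number between open and normal mucosa remains in the SEs of the main fit. Without normalization between arrays the median over all probes moved from -0.004 to 0.098, and these differences turned: Kirrel3 0.016, Nr4a1 0.040, Pcdh10 0.074, Slc24a1 0.10 and Tnf 0.0099. With the median of repeat arrays Pcdh10 was 0.011 and Slc24a1 0.048. Kirrel2 came to 0.0027 without normalization and Calb2 to -0.0019 with median centring. Leaving out each replicate in turn, the differences of these genes changed sign, with the cause not tested: 2310057J18Rik -2.06 to 3.13, Calb2 -0.023 to 0.26, Car6 -0.077 to 2.14, Col10a1 -1.91 to 0.26, Efna5 -0.074 to 0.23, Egr1 -0.20 to 0.43, Fos -0.19 to 0.39, Foxj1 -0.10 to 0.22, Ibsp -0.30 to 0.23, Kirrel2 -0.30 to 0.27, Kirrel3 -0.16 to 0.045, Krt5 -0.093 to 0.25, Lcn4 -0.73 to 3.49, Lifr -0.17 to 0.16, Mbp -0.084 to 0.33, Muc5b -0.18 to 0.60, Nr4a1 -0.60 to 0.26, Pcdh10 -0.15 to 0.033, Pip -0.46 to 2.92, S100a5 -0.11 to 0.021, Slc24a1 -0.29 to 0.15 and Tnf -0.35 to 0.048. Pcp4l1, Omp and Cyp2f2 lay at 0.00 and have no direction, and all other named differences kept theirs under the alternatives run. Without open replicate 3 the olfactory receptor median turned from -0.06 to 0.03.

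With 50 added before log2 these moved by over 1.5 times: Il1r2 0.75, Sema3a 0.27, Npas4 -0.35, Lyz1 0.20, Tgm1 0.26, Cxcl2 0.37, Slc26a9 0.23 and Krt4 -0.23.

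Dim signal over noise went with lower precision: the SE had a median of 0.52 in the dimmest 5985 probes and 0.22 in the brightest 5985.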

Other observations

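Probes without a gene name here also stood apart in single replicates. On mMC001037 and mMC004261, which read 15.92 or more in all other open and normal replicates, open replicate 3 read 10.66 and 11.17. On mMC025308 and mMC025865 open replicate 3 read 14.40 and 14.56, normal replicate 2 read 10.02 and 12.13, and the other 4 replicates lay between 5.48 and 8.55. Occluded replicate 2 was high on both of the latter probes, at 12.95 and 13.95. Lrba, which encodes a protein of vesicle transport, read 11.66 in normal replicate 1 and between 14.09 and 14.68 in the other 5 replicates, and its difference moved from 0.98 to 0.12 with the median of the repeat arrays. Fgd1, an exchange factor for Cdc42, read 6.73 in normal replicate 3 and between 10.08 and 10.94 in the others.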
